A study of Homo sapiens with 36 samples.

Results

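The regions described here are all the regions of chromosome 13 (hg19) that the deposited lists of H3K27ac and JUNB enrichment hold, taken in order of their start. Over the 7 lists they number 8965 of 434639 regions. Chromosome 13 held 1290 regions in the H3K27ac list of POS and NEG cells, 1228 in the acute POS list, 935 in the acute NEG list, 1034 in the chronic POS list, 634 in the chronic NEG list, 1438 in the list of POSR and POS cells and 2406 sites in the JUNB list. Each H3K27ac region was 1001 bases wide and each JUNB site 201 bases, so the values below are counts in windows of fixed size. The first listed site began at position 20171105 and the last ended at position 115079969. All of them were chosen with the differences between POS and NEG cells, between POSR and POS cells and between trametinib and control already known, so those differences are described by their size and by counts of calls. P-values are printed for POS over NEG at day 0 and for the difference between the trametinib responses of NEG and POS cells. The latter come from the same libraries as the trametinib differences already known, so they serve as a description.

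The cells were SUM-229PE, a triple-negative breast cancer line grown from a pleural effusion, and all groups share that origin. POS cells were the subpopulation sorted for EpCAM and CD49f on the surface, and NEG cells the one sorted for the absence of both. Acute trametinib means 30 nM of this MEK inhibitor for 24 hours, with DMSO as its control, in POS cells (3 and 3 H3K27ac libraries) and in NEG cells (2 and 2). Chronic trametinib means 10 nM, compared between day 14 and day 0, in POS cells (2 and 2) and in NEG cells (2 and 2). POSR1 and POSR2 (2 H3K27ac libraries each) are labelled as a POSR subpopulation with no treatment given, and they were compared with the acute DMSO libraries of POS cells (3). JUNB, which pairs with FOS proteins to form AP-1, a factor that binds enhancers, was measured in POS cells (2) and NEG cells (2) under DMSO. The labels leave the origin of the replicates unstated, and the spread between libraries may be technical.

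H3K27ac is acetylation of lysine 27 on histone H3, a mark of active promoters and enhancers. Chromosome 13 is acrocentric: its short arm carries ribosomal RNA genes, and its long arm is gene-poor with long gene deserts. It carries the tumour suppressors RB1, a brake on the cell cycle, and BRCA2, which acts in repair by homologous recombination, and also KLF5, a transcription factor of epithelial cells. In the RefSeq table of GRCh38.p14 it holds 338 protein-coding genes, 1.69% of those on chromosomes 1 to 22 and X. No annotation of hg19 was used, so the regions below are given by position and are not assigned to genes.

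POS cells had more H3K27ac than NEG cells over most of chromosome 13. Between 1.54% and 1.6% of all counts in the listed regions fell on this chromosome in the 3 POS libraries, against 1.04% and 1.05% in the 2 NEG libraries. Library totals were 4644625 to 8895187 counts in POS cells and 5221811 and 5328024 in NEG cells. Of the 1288 regions that passed the filter on low counts, 717 were called higher in POS cells (edgeR, adjusted p under 0.05), which is 55.7%, against 38.6% of all 57023 regions tested. Another 333 were lower in POS cells, which is 25.9%, against 38.0% of all regions. The median log2 fold change of POS over NEG was 0.87 on chromosome 13 and -0.04 over all regions. It was the highest of the 23 chromosome medians, followed by chromosome 9 with 0.71. In a bulk profile, more cells that carry a mark and more of the mark in each cell cannot be told apart.

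Separate libraries of JUNB also placed chromosome 13 first. Of the 2270 chromosome 13 sites tested, 1128 were higher in POS cells (49.7%, against 28.5% of all 141580 sites) and 522 were lower (23%, against 29.4%). The median log2 fold change was 0.85, again the highest of the 23 chromosomes. The JUNB sites that overlap no H3K27ac region in any list served as a guide to copy number, which was not measured here. There were 945 of them on chromosome 13, 39.3% of its JUNB sites, against 50.0% over all chromosomes. Of the 855 tested, 373 were higher in POS cells (43.6%, against 22.5% of all 69449) and 216 were lower (25.3%, against 27.5%). Their median was 0.73 on chromosome 13 and -0.08 over all such sites. At the 404 sites lying at least 10 kb from any H3K27ac region the median was 0.76. A different number of copies and a different amount of JUNB or acetylation per copy cannot be told apart with these counts, and the input libraries were not analysed here.

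**Figure D1:**
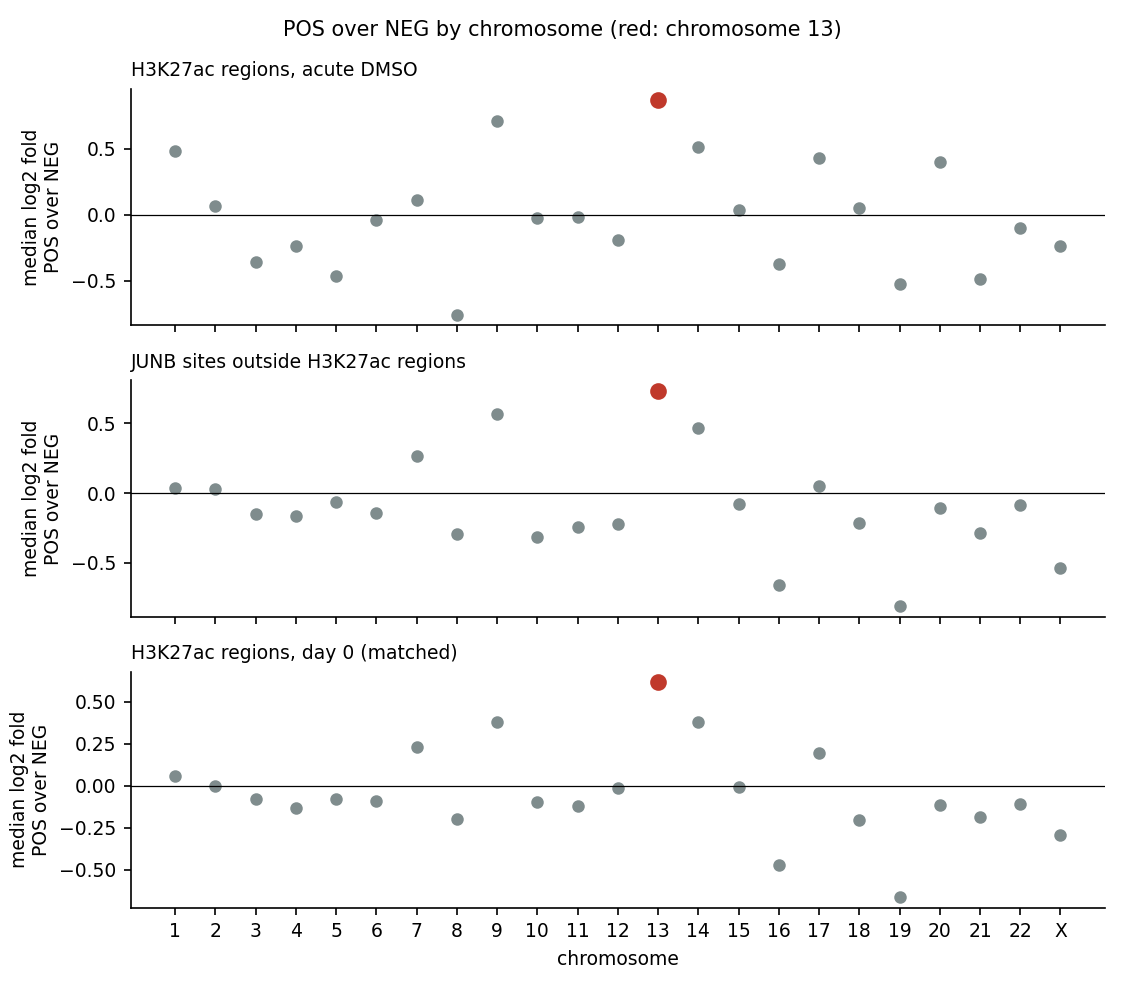
Median log2 fold change of POS over NEG (y axis) for each chromosome (x axis), for H3K27ac regions under acute DMSO, JUNB sites outside H3K27ac regions, and H3K27ac regions at day 0; the y axes differ between panels. Chromosome 13 (red) is the highest point in each panel, at 0.87, 0.73 and 0.61.

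The excess repeated in libraries that this contrast did not use. At day 0 of the chronic series, 314 chromosome 13 regions could be matched between the POS and NEG lists. Of these, 178 were higher in POS cells (56.7%, against 36.3% of all 15794 matched regions) and 38 were lower (12.1%, against 36.5%), in edgeR, with p-values adjusted over all matched regions. The median was 0.61, against -0.03 over all matched regions and 0.38 on chromosome 14, the next highest. The matching kept only regions listed in both POS and NEG cells, and so dropped those present in one of them. The regions with the largest differences show the size. At chr13:77427443-77428444 POS cells had 135 and 115 CPM (library-scaled counts), against 10.0 and 15.0 CPM in NEG cells, a log2 fold change of 3.38 ± 0.17 (SE, n = 2 each, edgeR adjusted p = 9.9e-84). The region chr13:74002226-74003227 had 139 and 143 CPM in POS cells, against 12.7 and 15.5 CPM in NEG cells. The region chr13:74251408-74252409 had 125 and 107 CPM in POS cells, against 10.4 and 14.0 CPM in NEG cells, and chr13:97926954-97927955 had 134 and 133 CPM, against 13.8 and 17.6 CPM. All POS libraries lay above all NEG libraries at these 4, because the rule for naming requires groups that do not overlap. In the other direction 2 regions met the rule for naming, and both differences were small: chr13:111048638-111049639 had 55.6 and 45.0 CPM in POS cells, against 70.8 and 64.3 CPM in NEG cells, a log2 fold change of -0.40 ± 0.14 (edgeR adjusted p = 0.0065). Neither call held in DESeq2 or, in edgeR, without NEG day 0 replicate 1 or POS day 0 replicate 2 (adjusted p of 0.0851 to 0.126). Between the day 0 and the acute DMSO libraries, 271 regions could be matched and 153 were called in both (56.5%, against 60.8% over all chromosomes). Of these, 123 were higher in POS cells in both and 29 lower in both. Thus 152 had the same direction (99.3% of those called in both, against 99.7% over all chromosomes). Of those called in both, 80.4% were higher in POS cells, against 49.0% over all chromosomes.

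The excess was not uniform along the chromosome. Sliding segments of 5 Mb, moved by 1 Mb and kept where they held at least 10 tested regions, gave 96 segments, and the median of POS over NEG was above 0 in 69 of them. An unbroken run of 38 segments with positive medians covered the proximal side, up to position 58 Mb. The ordered fold changes were split into the 3 pieces with the smallest absolute deviations, with at least 50 regions required in each. This gave a first piece of 646 regions (20.2 to 61.5 Mb) with a median of 1.14, a second of 55 regions (63.25 to 70.98 Mb) with a median of -3.32, and a last one of 587 regions (71.5 to 114.9 Mb) with a median of 0.71. The same split of the JUNB sites isolated another stretch: 99 sites from 86.7 to 95.1 Mb with a median of -3.39, between 0.95 on its proximal side and 0.90 on its distal side. For JUNB sites outside H3K27ac regions the middle piece held 50 sites from 86.2 to 95.6 Mb at -3.25. That is the smallest piece allowed, so its limits may have been set by the minimum. The 30 such sites tested from 62 to 71 Mb were too few to form a piece. The chromosome was therefore read as 5 stretches, 20 to 62, 62 to 71, 71 to 87, 87 to 95 and 95 to 116 Mb, with limits rounded after the values were seen.

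**Figure D2:**
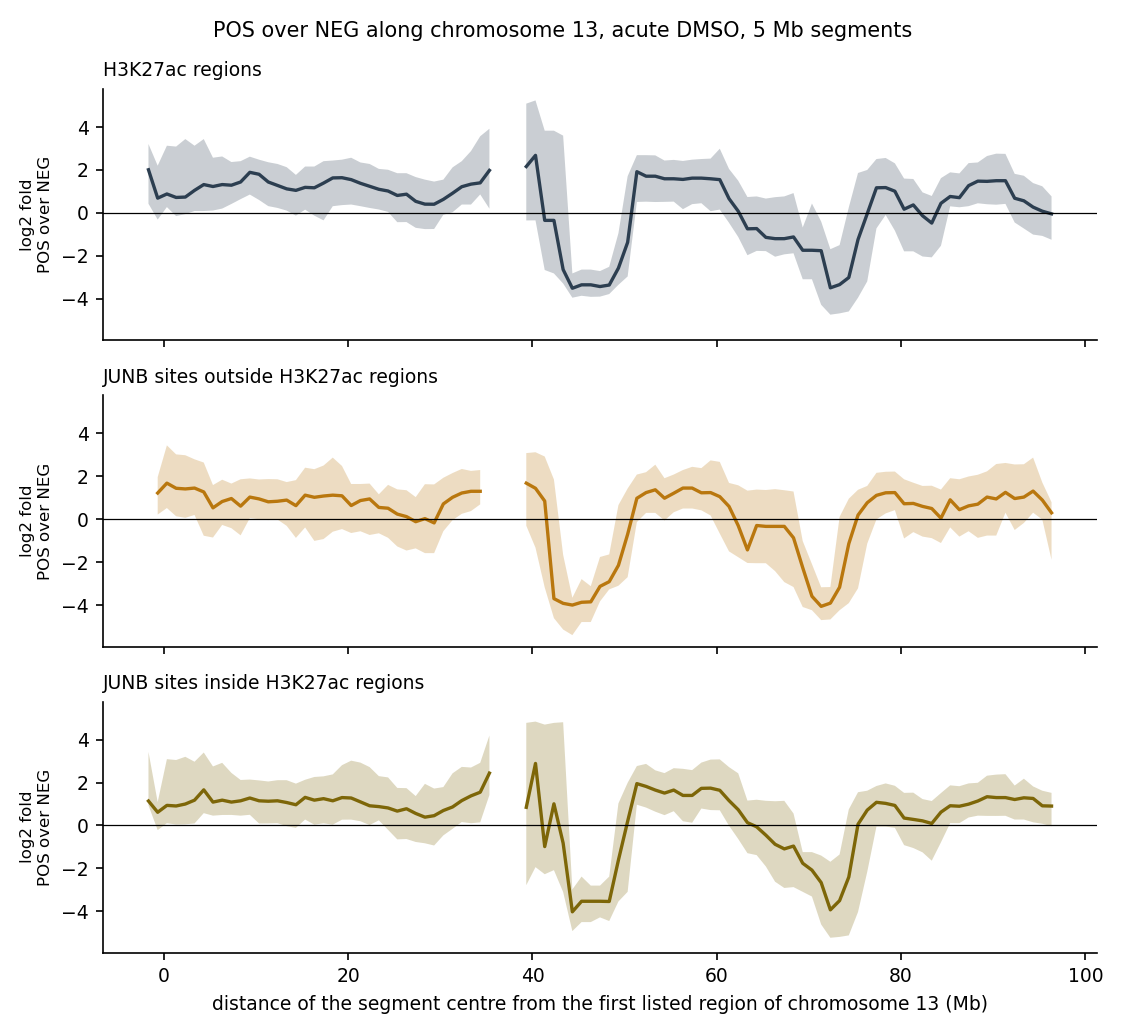
Median (line) and quartiles (band) of the log2 fold change of POS over NEG in 5 Mb segments, against the distance of the segment centre from the first listed region, for H3K27ac regions and for JUNB sites outside and inside H3K27ac regions; gaps are segments with under 10 regions. All 3 profiles lie mostly above 0 and drop below -3 in a pair of troughs, with lowest segment medians of -3.51, -4.06 and -4.02.

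In the stretch from 62 to 71 Mb POS cells had almost no H3K27ac while NEG cells were acetylated. The median over its 55 regions was 0.380, 1.04 and 0.954 CPM in the POS libraries, which is 3, 5 and 6 counts, against 7.12 and 7.27 CPM in the NEG libraries, which is 40 and 41 counts. In the stretch from 20 to 62 Mb the medians over 646 regions were 8.74, 8.14 and 8.35 CPM in POS cells, against 4.27 and 4.52 CPM in NEG cells. The order of the groups was thus reversed between these neighbouring stretches, and in neither did libraries of the groups overlap. Of the 55 regions, 53 were lower in POS cells and 2 were higher. In the first stretch 406 were higher in POS cells and 104 lower.

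The stretch from 87 to 95 Mb looked alike. Its 52 regions had medians of 0.760, 1.57 and 1.11 CPM in the POS libraries, against 8.89 and 8.07 CPM in the NEG libraries, and 43 of them were lower and 6 higher in POS cells. The stretch between, 71 to 87 Mb, had medians of 8.55, 8.77 and 8.83 CPM in POS cells, against 5.51 and 5.50 CPM in NEG cells, with 139 of 226 regions higher and 49 lower. From 95 to 116 Mb the medians were 7.98, 7.51 and 8.75 CPM in POS cells, against 5.87 and 5.67 CPM in NEG cells, with 164 of 309 higher and 84 lower. Median levels of POS cells thus fell into a high and a low set, and those of NEG cells lay between 4.27 and 8.89 CPM. In the 2 low stretches nearly all regions were listed through NEG libraries, so the NEG level there is that of regions where NEG cells were high.

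The lists themselves show the same 2 stretches. A list holds only regions called in at least 1 of its libraries, so few regions were listed there for POS cells. The acute POS list held 6 regions from 62 to 71 Mb and 16 from 87 to 95 Mb, which is 0.489% and 1.30% of its regions on this chromosome. The acute NEG list held 72 and 78, which is 7.70% and 8.34%. The chronic POS list held 5 and 9, against 42 and 46 in the chronic NEG list. In the joint list of POS and NEG cells 54 of the 55 regions from 62 to 71 Mb, and 45 of the 52 from 87 to 95 Mb, carry the name of a NEG library.

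Single regions show how deep the difference went. At chr13:66886050-66887051 the POS libraries had 0.127, 0.209 and 0.318 CPM, 4 counts in all, against 28.3 and 25.7 CPM and 304 counts in the NEG libraries, a log2 fold change of -6.87 ± 0.34 (SE). At chr13:93901700-93902701 they had 0.253, 1.04 and 0.954 CPM, against 25.3 and 29.3 CPM in NEG cells (-5.27 ± 0.29). The remaining 2 regions named as lower in POS cells, chr13:101993778-101994779 and chr13:101798426-101799427, lie outside both stretches and had 0.886 to 2.5 CPM in POS cells, against 23.1 to 30.0 CPM in NEG cells. Those named as higher in POS cells all lie outside both stretches. At chr13:61518435-61519436, the nearest to the proximal edge, POS libraries had 22.9, 20.7 and 23.4 CPM, against 0.356 and 0.177 CPM in NEG libraries, which hold 3 counts there. The ratio was 84.5 with a 95% counting interval of 28.7 to 411. The regions chr13:78111638-78112639, chr13:53500591-53501592 and chr13:44681930-44682931 had 22.8 to 39.1 CPM in POS libraries, against 0.355 to 0.534 CPM in NEG libraries.

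The low level of POS cells was lower in these stretches than at regions called lower in POS cells elsewhere. Among regions called lower with a log2 fold change under -1, the POS mean had a median of 0.774 CPM over 53 regions from 62 to 71 Mb and 0.800 CPM over 43 regions from 87 to 95 Mb. It was 1.9 CPM over 192 regions in the rest of chromosome 13 and 3.15 CPM over 16121 regions of the other chromosomes. These are levels of regions selected by the same contrast and are given as a description. In the 2 stretches nearly all regions were also listed through NEG libraries, so a low POS level was built into the selection. Troughs on the other chromosomes were not set apart.

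The stretch from 62 to 71 Mb was interrupted near its middle. A run of 36 regions in a row, chr13:63251493-67247949, was lower in POS cells with a median of -3.43, and a run of 17, chr13:67568171-70982494, with a median of -2.97; every region of both runs was called. Between them lie chr13:67501244-67502245, with 13.4, 10.2 and 11.9 CPM in POS cells, against 2.49 and 1.24 CPM in NEG cells (2.67 ± 0.32), and chr13:67507972-67508973, with 9.75, 6.68 and 9.54 CPM, against 5.87 and 5.50 CPM (0.63 ± 0.27). The next region, chr13:67568171-67569172, had 4.94, 4.38 and 4.45 CPM in POS cells, against 7.29 and 11.9 CPM in NEG cells. Of the 55 regions, 39 had a POS mean under 1 CPM, and these 3, chosen after their values were seen, were the ones with a POS mean of 3 CPM or more. In this list the POS mean thus reached 3 CPM only around this place. The lists of POS cells alone held further regions in the stretch, 6 in the acute and 5 in the chronic list in all.

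A further, sparse stretch lies proximal to these. A run of 5 tested regions in a row with negative fold changes, chr13:55146029-59686868, spans 4.54 Mb, its limits set by the sign. All 5 were called lower in POS cells, with a median of -2.39. The longest gap between listed regions in the acute POS list, 5.95 Mb, lies from position 53712865 to position 59659592.

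JUNB followed the same outline. From 62 to 71 Mb the 75 tested sites had medians of 0.351 and 0.384 CPM in POS cells, against 4.39 and 4.73 CPM in NEG cells, and 66 were lower and 4 higher in POS cells. From 87 to 95 Mb the 93 sites had 0.468 and 0.384 CPM in POS cells, against 4.39 and 4.91 CPM in NEG cells, and 83 were lower and 1 higher. The sites outside H3K27ac regions were as low: 0.351 and 0.384 CPM in POS cells, against 3.68 and 3.59 CPM in NEG cells, over 30 sites in the proximal stretch, and 0.234 and 0.192 CPM, against 3.68 and 3.50 CPM, over 33 sites in the distal one. Of these sites 26 and 30 were lower in POS cells. In no stretch named here did the libraries of the groups overlap. Of the listed JUNB sites, 70 of 81 from 62 to 71 Mb and 92 of 96 from 87 to 95 Mb carry the name of a NEG library. The low POS level at these sites therefore follows in part from how they were listed. The run of outside sites lower in POS cells from chr13:86661450-95071895 spans 8.41 Mb with 37 sites, 33 of them called.

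**Figure D3:**
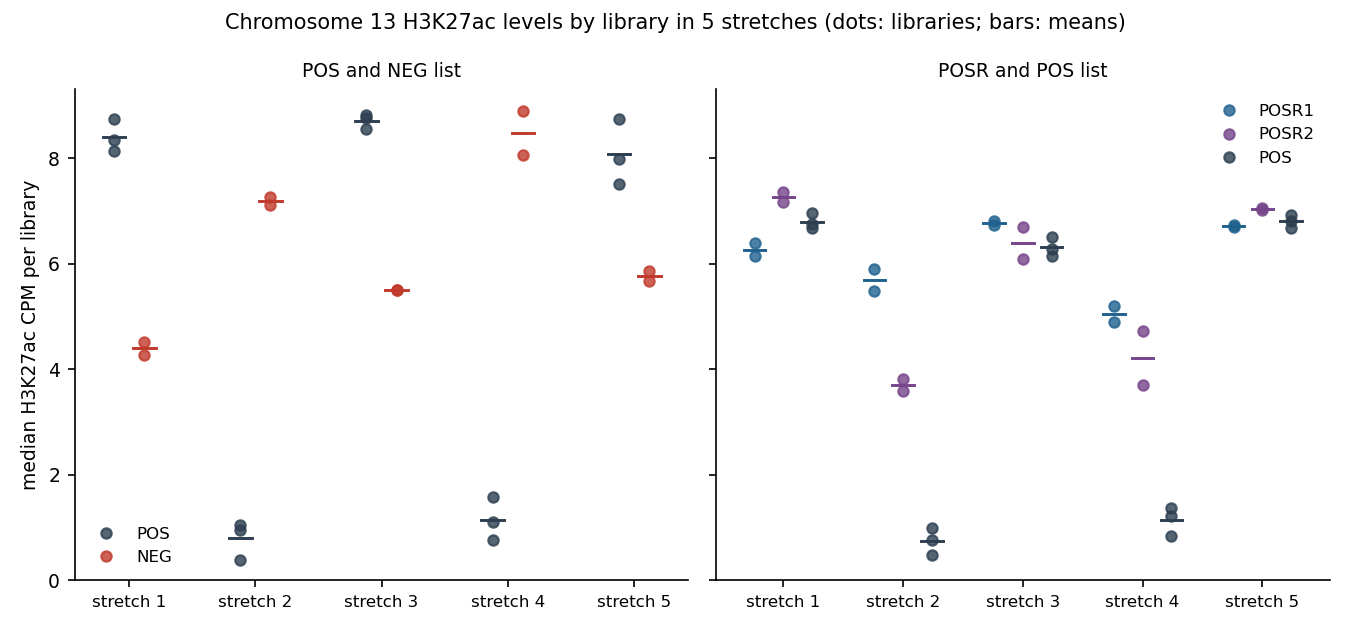
Median H3K27ac CPM of each library (y axis from 0; dots are libraries, bars are means of the libraries) in 5 stretches of chromosome 13 (x axis), numbered from 20 to 62, 62 to 71, 71 to 87, 87 to 95 and 95 to 116 Mb, in the list of POS and NEG cells (left) and that of POSR1, POSR2 and POS cells (right). POS libraries are at 0.380 to 1.57 CPM in stretches 2 and 4 and at 7.51 to 8.83 CPM in the others of the left panel; NEG, POSR1 and POSR2 libraries lie between 3.59 and 8.89 CPM throughout.

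JUNB sites inside acetylated regions were called mostly in the direction of the acetylation, on chromosome 13 as elsewhere. Of the 1288 tested H3K27ac regions, 947 held a JUNB site, overlapping by 50% of the site or more, which is 73.5%, against 77.2% over all chromosomes. Both measurements were called at 638 of these 947 (67.4%, against 59.4% over all chromosomes). Of those 638, 452 were higher in POS cells in both (70.8%, against 50.5% over all chromosomes). Another 170 were higher in NEG cells in both (26.6%, against 45.9%), and 16 were opposite (2.51%, against 3.55%). A JUNB site lay in 569 of the 717 regions higher in POS cells (79.4%, against 87.3% over all chromosomes) and in 216 of the 333 regions lower in POS cells (64.9%, against 74.0%). The site chr13:39527054-39527255 had 30.2 and 28.8 CPM in POS cells, 408 counts, against 0.237 and 0 CPM in NEG cells, 2 counts, a ratio of 210 (95% counting interval 57.7 to 1740). The site chr13:53500194-53500395, next to the named acetylated region at 53.5 Mb, had 17.4 and 13.2 CPM in POS cells, against 0.119 and 0 CPM in NEG cells. Of the 4 sites named as lower in POS cells, 3 lie from 87 to 95 Mb: chr13:93803595-93803796, chr13:93242757-93242958 and chr13:92876838-92877039. They had 0 to 0.234 CPM in POS libraries, 1, 1 and 2 counts in all, against 8.76 to 18.7 CPM in NEG libraries. The largest of these counts, at chr13:92876838-92877039, was 217 in NEG cells and gave a NEG over POS ratio of 106 (95% counting interval 28.9 to 877). Such intervals cover counting error alone.

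Troughs of this kind were present on other chromosomes too. Over all chromosomes 66 of 2855 segments of 5 Mb had a median of POS over NEG below -2 in H3K27ac, on 12 chromosomes, and 10 of them lie on chromosome 13. For JUNB sites outside H3K27ac regions 65 of 2871 segments were below -2, with 13 on chromosome 13. The lowest H3K27ac segment of the other chromosomes had -4.62, against -3.51 on chromosome 13. For the JUNB sites outside it had -3.78, against -4.06. Whether chromosome 13 has more of them than other chromosomes was not tested.

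In POSR1 and POSR2 cells the stretches that are low in POS cells carried H3K27ac. Over the 73 regions from 62 to 71 Mb the median was 5.90 and 5.49 CPM in POSR1 cells and 3.59 and 3.81 CPM in POSR2 cells, against 0.482, 0.981 and 0.757 CPM in POS cells. Over 57 regions from 87 to 95 Mb it was 5.20 and 4.90 CPM in POSR1 cells and 3.71 and 4.73 CPM in POSR2 cells, against 0.844, 1.37 and 1.21 CPM in POS cells. All POSR libraries lay above all POS libraries in both. The log2 fold change of POSR1 over POS had a median of 2.89 in the proximal stretch, with 68 regions higher and 0 lower, and of 1.92 in the distal one, with 50 higher and 0 lower. For POSR2 the medians were 2.19, with 63 higher and 0 lower, and 1.21, with 37 higher and 0 lower. Most of these regions carry the name of a POSR library (70 of 73 and 55 of 58 listed), so the list holds them because POSR cells were acetylated there.

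Over the chromosome as a whole the difference between POSR and POS cells was smaller. For POSR1, 463 of 1437 regions were higher than in POS cells (32.2%, against 26.5% of all 53524) and 293 lower (20.4%, against 29.4%), with a median of 0.10. For POSR2, 517 were higher (36.0%, against 28.2%) and 273 lower (19.0%, against 29.2%), with a median of 0.22. From 20 to 62 Mb the medians were -0.05 for POSR1 and 0.19 for POSR2, from 71 to 87 Mb 0.17 and 0.01, and from 95 to 116 Mb -0.04 and 0.13. The split into 3 pieces isolated 62.3 to 71.5 Mb for POSR1 and 62.82 to 70.98 Mb for POSR2. The highest 5 Mb segment for both, 54 to 59 Mb with 10 regions, had medians of 3.16 and 3.61, and lies over the sparse stretch that was low in POS cells. Such peaks were present on other chromosomes too. Over all chromosomes 28 of 2882 segments had a median above 2 for POSR1, on 6 chromosomes, with 11 on chromosome 13. For POSR2 there were 21, on 7 chromosomes, with 7 on chromosome 13. The highest segment of the other chromosomes had 3.40 for POSR1 and 2.94 for POSR2. Both contrasts share the POS libraries, with each other and with the contrast of POS over NEG, so a low value in those libraries enters all 3.

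**Figure D4:**
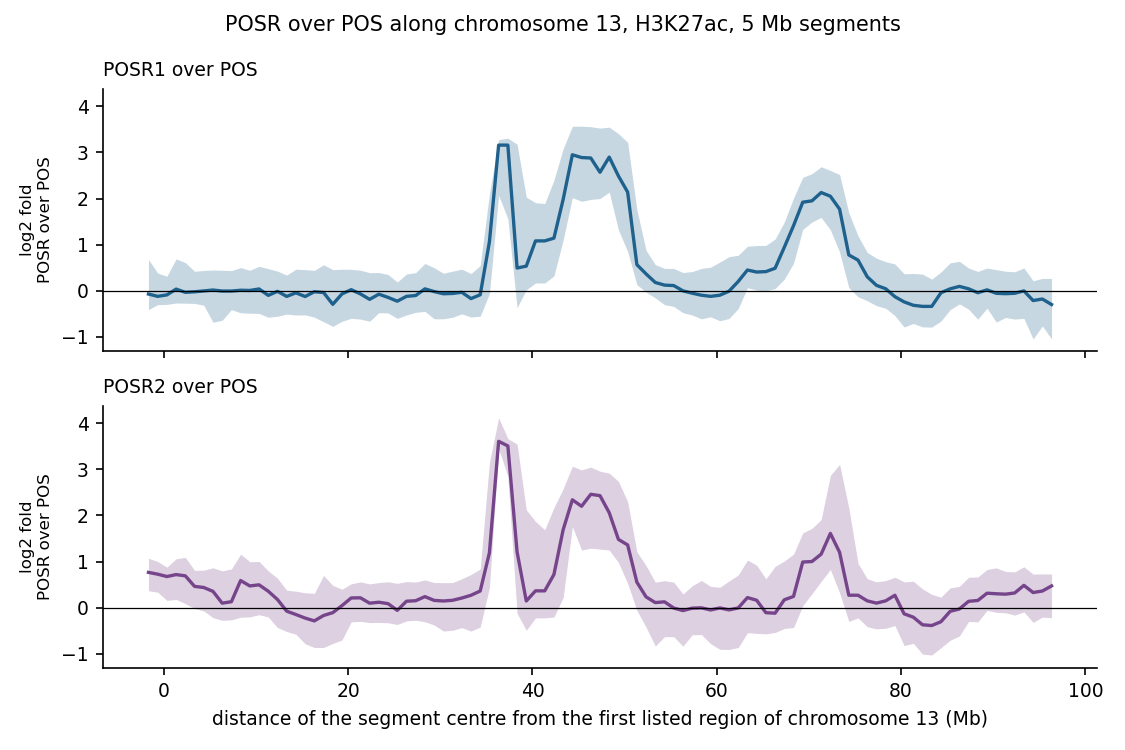
Median (line) and quartiles (band) of the H3K27ac log2 fold change of POSR1 over POS (upper) and POSR2 over POS (lower) in 5 Mb segments, against the distance of the segment centre from the first listed region. Both lines have 3 peaks, of which the first reaches 3.16 and 3.61, and the POSR2 line is also above 0 at the proximal end, with 0.76 in its first segment.

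Against the acute DMSO libraries of POS cells, the regions named as higher in POSR cells lie in these stretches and those named as lower outside them. At chr13:94981899-94982900 POSR1 cells had 30.6 and 35.7 CPM and POSR2 cells 39.6 and 42.8 CPM, against 2.41, 1.37 and 1.66 CPM in POS cells. The region chr13:67882066-67883067 had 19.8 and 22.4 CPM in POSR1 cells and 22.7 and 22.5 CPM in POSR2 cells, against 1.45, 1.77 and 0.908 CPM in POS cells. In the sparse stretch, chr13:56998309-56999310 had 22.7 and 21.3 CPM in POSR2 cells and 8.43 and 10.0 CPM in POSR1 cells, against 0.362, 1.18 and 0.454 CPM in POS cells. POSR and POS libraries did not overlap at these 3 places, which the rule for naming requires. The region chr13:33746524-33747525 fell to 9.13 and 11.0 CPM in POSR1 cells, against 70.7, 53.6 and 66.9 CPM in POS cells (-2.66 ± 0.19), while POSR2 cells had 42.6 and 47.2 CPM. The region chr13:52093993-52094994 was lower in both, with 4.21 and 5.25 CPM in POSR1 cells and 6.70 and 6.96 CPM in POSR2 cells, against 33.1, 24.5 and 31.3 CPM in POS cells.

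On a common scaling of the matched regions, POSR cells were between POS and NEG cells in the low stretches. Of the 55 regions in the list of POS and NEG cells from 62 to 71 Mb, 22 could be matched in the POSR list, which is 40.0% of the one and 30.1% of the other. Their medians were 8.84 and 8.68 CPM in POSR1 cells, 5.56 and 5.67 CPM in POSR2 cells, 0.797, 1.44 and 1.13 CPM in POS cells, and 12.1 and 13.3 CPM in NEG cells. From 87 to 95 Mb the 21 matched regions had medians of 8.34 and 10.1 CPM in POSR1 cells, 7.18 and 7.35 CPM in POSR2 cells, 2.45, 2.00 and 1.94 CPM in POS cells, and 22.1 and 18.6 CPM in NEG cells. In both stretches the order was NEG, POSR1, POSR2 and POS, with no overlap between libraries of neighbours in that order. The low place of POS cells in it was set by the lists, which hold these regions almost only through NEG and POSR libraries. In flanking stretches 72.2% to 81.3% of the regions of the POS and NEG list were matched.

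POS cells of the chronic series, which share no library with the acute DMSO controls, lay below POSR cells by the median at the few regions matched in the low stretches. In the chronic POS list, day 0 medians were 4.46 and 5.98 CPM over 5 regions from 62 to 71 Mb. They were 6.6 and 7.18 CPM over 9 regions from 87 to 95 Mb, against 9.82 and 9.87 CPM over the chromosome. The 5 regions from 62 to 71 Mb matched between the POSR and the chronic POS lists had a median log2 fold change of 0.91 for POSR1 over day 0 POS cells, and all 5 were higher. For POSR2 the median was 0.83 and 3 were higher. From 87 to 95 Mb the 7 matched regions had medians of 1.06 (4 higher) and 1.01 (6 higher), and none of either stretch was lower in POSR cells. At chr13:90053288-90054289 POSR1 cells had 56.7 and 51.9 CPM and POSR2 cells 42.3 and 39.5 CPM, against 13.6 and 10.7 CPM in day 0 POS cells. Over all 726 matched regions of the chromosome 168 were higher and 126 lower for POSR1 (23.1% and 17.4%, against 23.3% and 25.4% of all 31001), and 227 higher and 146 lower for POSR2 (31.3% and 20.1%, against 25.8% and 26.3%). With total counts in place of TMM scaling the POSR1 calls turned to 132 higher and 147 lower. This matching leaves out regions not listed in POS cells of the chronic series, which are most of those in the low stretches.

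POSR2 cells were lower than POSR1 cells in many regions of both long stretches. From 62 to 71 Mb 27 of 73 regions were lower in POSR2 cells than in POSR1 cells and 3 higher, with a median of -0.48. From 87 to 95 Mb 29 of 57 were lower and 9 higher, with a median of -0.52. In the sparse stretch the segment from 54 to 59 Mb was the highest of this comparison, with a median of 0.97, 5 of 10 regions higher in POSR2 cells and 0 lower. Over the chromosome 303 of 1437 were higher in POSR2 cells (21.1%, against 21.2% of all regions) and 260 lower (18.1%, against 19.3%). These 563 calls were 354 in DESeq2 and 361 to 367 without POSR1 replicate 2, POSR2 replicate 1 or POSR2 replicate 2. The region chr13:70981688-70982689, at the distal edge of the proximal stretch, had 5.03 and 5.65 CPM in POSR2 cells, against 25.8 and 31.0 CPM in POSR1 cells (-2.42 ± 0.18) and 2.05, 2.16 and 1.97 CPM in POS cells. At chr13:110161823-110162824 POSR2 cells had 20.3 and 19.4 CPM, against 3.79 and 2.51 CPM in POSR1 cells (2.67 ± 0.22).

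Trametinib gave no 5 Mb segment of chromosome 13 with a median beyond 2 or -2 on the log2 scale, in either subpopulation or at either time. Over all chromosomes only 1 segment passed this limit, in POS cells at day 14, with 2776 to 2843 segments per comparison. The absence was thus not particular to chromosome 13. In POS cells after acute trametinib 1.71% of counts lay on the chromosome in all 3 libraries, against 1.54% to 1.57% under DMSO. Of 1225 regions tested, 407 were higher with trametinib (33.2%, against 26.7% of all 50345) and 268 lower (21.9%, against 26.0%). The median of 0.16 was the highest of the 23 chromosomes, followed by chromosome 21 with 0.14. The split into 3 pieces gave 0.34 over 432 regions from 20.2 to 43.6 Mb, 0.10 over 708 regions up to 110.4 Mb and -0.46 over the last 85 regions. The lowest 5 Mb segment was 110 to 115 Mb with -0.42.

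In NEG cells the share of counts on the chromosome was 1.02% and 0.975% with acute trametinib, against 0.989% and 0.998% under DMSO, so the groups overlapped. Of 935 regions tested, 157 were higher (16.8%, against 17.2% of all 54409) and 196 lower (21%, against 19.3%), which is close to the share over all regions. DESeq2 called 146 of them in both directions together, against 353 by edgeR. With total counts in place of TMM scaling 188 were higher and 179 lower, and without NEG trametinib replicate 2 150 were higher and 149 lower. The median was 0.00, and the lowest 5 Mb segment, 100 to 105 Mb, had -0.46. The stretches that were low in POS cells carried acetylation in NEG cells. There the 72 regions from 62 to 71 Mb had a median of 0.22, with 15 higher and 7 lower. The 78 from 87 to 95 Mb had a median of 0.21, with 21 higher and 11 lower.

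**Figure D5:**
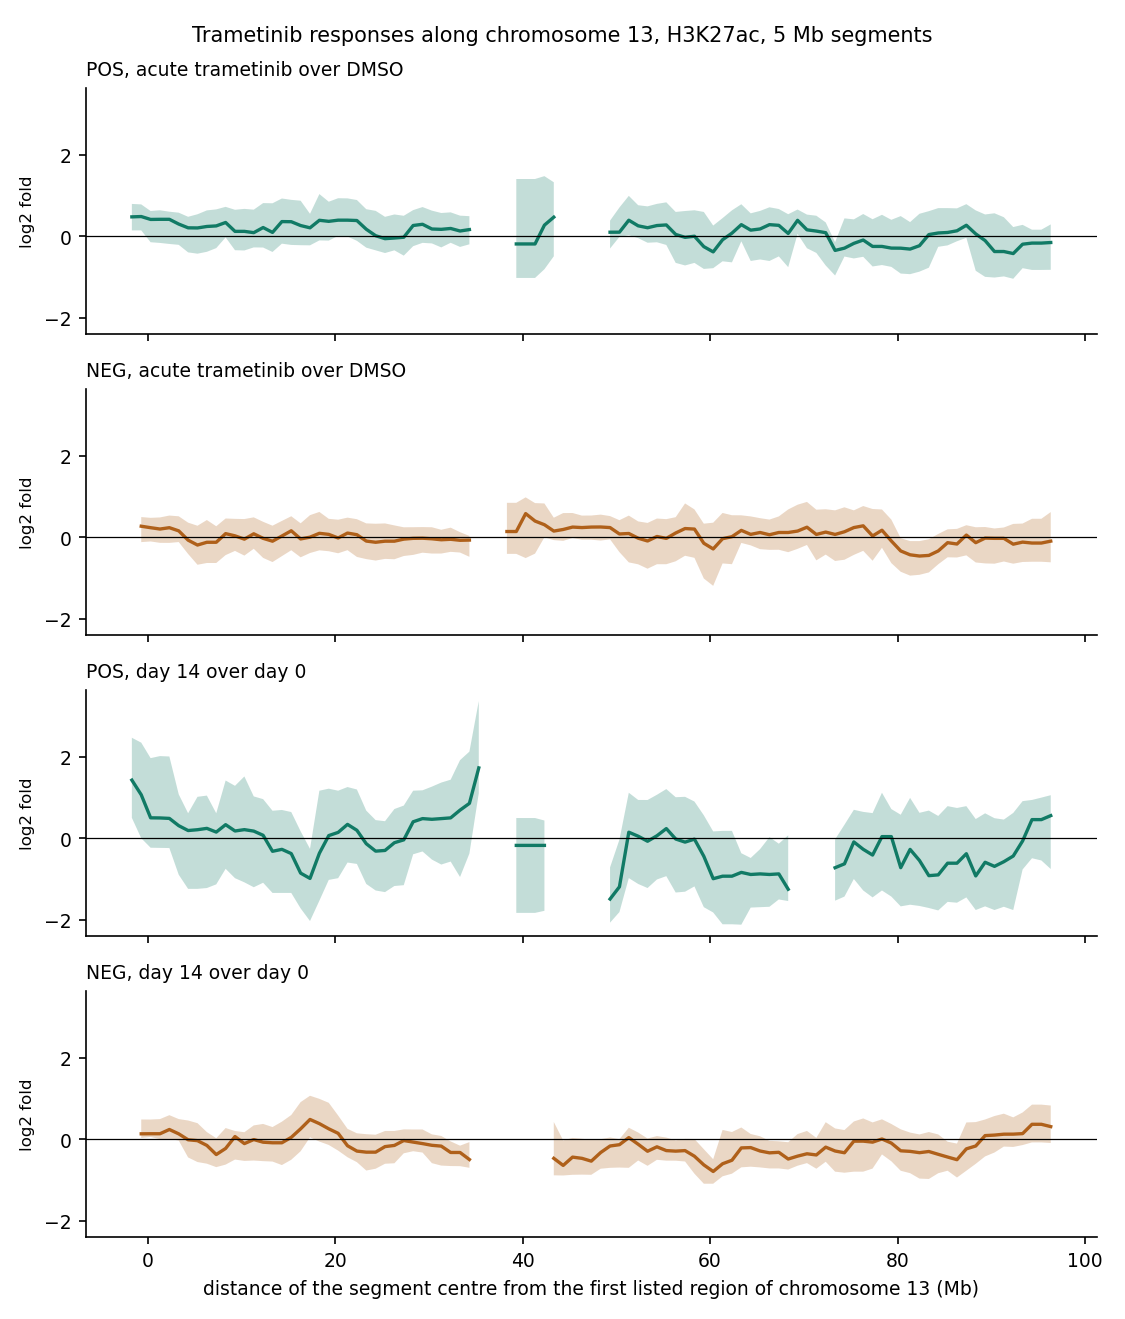
Median (line) and quartiles (band) of the H3K27ac log2 fold change with trametinib in 5 Mb segments, against the distance of the segment centre from the first listed region, for POS and NEG cells after acute treatment and at day 14 over day 0, on a shared y axis; gaps are segments with under 10 regions. Segment medians stay within -0.42 and 0.49 in acute POS cells and within -0.46 and 0.58 in acute NEG cells, and reach -1.49 and 1.73 in POS cells at day 14.

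At day 14 of 10 nM trametinib both subpopulations had slightly less of their counts on chromosome 13. The share was 1.54% in both day 14 libraries of POS cells, against 1.61% and 1.59% at day 0, and 0.936% and 0.929% in NEG cells, against 0.979% and 0.975%. In POS cells 370 of 1033 regions were higher at day 14 (35.8%, against 39.5% of all 44304) and 424 lower (41.0%, against 38.2%). In NEG cells 86 of 628 were higher (13.7%, against 24.8% of all 28179) and 137 lower (21.8%, against 23.8%). DESeq2 called 88 of the NEG regions, 44 in each direction, against 223 by edgeR. The NEG median of -0.15 was the lowest of the 23 chromosomes. In POS cells the 2 pieces of the best split were 648 regions up to 74.3 Mb with a median of 0.12 and 385 regions from 74.5 Mb on with a median of -0.50. The highest segment, 53 to 58 Mb with 14 regions, had 1.73 and the lowest, 67 to 72 Mb with 10 regions, had -1.49. From 62 to 71 Mb the chronic POS list held 5 regions, of which 0 were higher at day 14 and 3 lower.

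The matched regions allow the responses of NEG and POS cells to be compared. In the acute series 32 of 375 matched regions had a larger log2 fold change in NEG than in POS cells by the interaction term (8.53%, against 14.1% of all matched regions) and 36 a smaller one (9.6%, against 11.5%). The larger of these counts changed with total counts as the scaling (36 and 30) and without single libraries, such as NEG DMSO replicate 2 (26 and 21) or NEG trametinib replicate 2 (24 and 19). For day 14 over day 0 the counts were 96 of 314 (30.6%, against 31.9%) and 83 (26.4%, against 30.7%), and with total counts 118 and 56.

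The regions that responded most show what single places did within this background. After acute trametinib in POS cells chr13:61361698-61362699 had 23.5, 20.8 and 22.7 CPM, against 4.89, 4.27 and 4.36 CPM under DMSO (2.30 ± 0.17). At chr13:110491868-110492869, in the distal piece that was lower, trametinib libraries had 3.49, 4.44 and 3.56 CPM, against 56.4, 37.4 and 53.1 CPM under DMSO (-3.70 ± 0.18), and the matching place chr13:110491794-110492795 had 0.923 and 1.37 CPM at day 14, against 44.8 and 38.0 CPM at day 0. In NEG cells chr13:88674526-88675527, inside the stretch from 87 to 95 Mb, had 21 and 22.9 CPM with acute trametinib, against 3.38 and 6.77 CPM under DMSO (2.11 ± 0.21). At day 14 in POS cells chr13:101199537-101200538 rose to 39.5 and 32.3 CPM, against 1.78 and 1.5 CPM at day 0 (4.40 ± 0.26). The 4 regions named as higher in NEG cells at day 14 changed less, from chr13:33825291-33826292 (0.84 ± 0.18) to chr13:109908680-109909681 (0.57 ± 0.15), and the last of these and chr13:114599526-114600527 were not called by DESeq2. The largest loss in NEG cells, chr13:95752128-95753129, had 15.8 and 17.8 CPM at day 14, against 72.9 and 66.6 CPM at day 0 (-2.06 ± 0.17).

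One place met the rule for a named loss in all 4 trametinib comparisons and in POSR2 cells. At about chr13:74817575-74818576 POS cells had 3.62, 3.08 and 1.89 CPM with acute trametinib, against 31.5, 27.8 and 34.8 CPM under DMSO. NEG cells had 10.5 and 7 CPM, against 32.6 and 36.9 CPM. At day 14 the levels were 1.11 and 0.98 CPM in POS cells, against 32.1 and 28.7 CPM at day 0, and 19.0 and 14.4 CPM in NEG cells, against 46.3 and 45.8 CPM. POSR2 cells had 5.15 and 4.34 CPM and POSR1 cells 17.7 and 15.9 CPM, against 30.3, 26.9 and 33.7 CPM in POS cells. Treated libraries were lower without overlap each time, which the rule for naming requires. Under DMSO the groups overlapped in the joint list, with 31.5, 30.1 and 35.0 CPM in POS cells, against 29.2 and 32.8 CPM in NEG cells. The place lies in the stretch from 71 to 87 Mb. By the interaction term, NEG minus POS, the responses there differed by 1.44 ± 0.28 (SE) after acute trametinib and by 2.86 ± 0.42 at day 14. The place did not meet the rule for naming in these interaction comparisons.

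Neighbouring regions were alike over different distances in these contrasts. Across pairs of chromosome 13 regions the log2 fold changes of POS over NEG correlated with r = 0.656 under 20 kb (766 pairs), 0.438 at 20 to 100 kb, 0.220 at 100 kb to 1 Mb and 0.063 at 1 to 5 Mb. Over all chromosomes these values were 0.576, 0.416, 0.192 and 0.0642. For POSR1 over POS the values were 0.601, 0.445, 0.251 and 0.194, against 0.502, 0.32, 0.149 and 0.0615 over all chromosomes. For acute trametinib in POS cells they were 0.544, 0.307, 0.0611 and 0.0031, against 0.48, 0.233, 0.0415 and 0.00167. Pairs share regions and libraries, and close windows can share reads of one enriched domain, so these values describe the profiles and carry no test.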

How the data were processed

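The deposited tables hold raw read counts per region, with the log2 fold changes and adjusted p-values of the authors' own comparisons beside them. Per the submitters' processing notes, cutadapt 1.12, STAR 2.5.2b, featureCounts, MACS2 and DESeq2 were used with hg19, and no settings are named there. A region enters a table only where it was called in a library of that table. From the counts, edgeR 4.0.16 (quasi-likelihood test, TMM scaling, filter on low counts with a minimum of 10) was fitted to each whole table in R 4.3.3, and p-values were adjusted over all its regions by the Benjamini-Hochberg method with a threshold of 0.05. Columns were mapped to libraries by name. CPM uses the TMM factors, and library totals were 1861227 to 9212006 counts. Regions of different tables were matched where each covered at least 50% of the other. DESeq2 1.42.0, other filters and scalings, the replicate block and leaving out each replicate were alternatives. No replicate pair agreed within sampling noise, and the test was checked on simulated counts. Replicate p-values measure the spread between these libraries. Regions were named by a rule: called, at or above the table's median level, with no overlap between groups, the 4 with the largest fold change each way at least 100 kb apart. The condition on overlap was not applied to the interaction terms. The members, lists and comparisons were chosen with earlier results of these data known, and the limits of the 5 stretches after the values were seen. The authors' deposited POS and NEG table calls 555 regions of chromosome 13 higher and 251 lower, and all 806 were called the same way here. Of 1062 calls in the authors' deposited JUNB table, 1049 were called the same way, and the authors' deposited tables call 61 regions after acute trametinib and 30 at day 14 in NEG cells.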

Additional observations from a re-analysis of the deposited data

Results flagged for a closer look

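The response to trametinib differed between NEG and POS cells at 16 named regions of chromosome 13, by the interaction term in edgeR, adjusted over all matched regions. Values below are differences, NEG minus POS, of log2 fold changes with their SE. They come from the same libraries as the responses above, and the regions were named for their large differences. The p-values printed with them are therefore a description.

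At chr13:99161045-99162046 NEG cells had 65.1 and 66.7 CPM with acute trametinib, against 34.1 and 33.1 CPM under DMSO, while POS cells had 63.7, 56.1 and 51.5 CPM, against 94.0, 71.5 and 92.3 CPM. The difference was 1.58 ± 0.19 (edgeR adjusted p = 4.6e-10), and the mark was higher with trametinib in both NEG libraries and lower in all POS libraries. The other positive differences at named regions were 1.22 ± 0.27 at chr13:75465827-75466828 (edgeR adjusted p = 0.00022), 1.19 ± 0.22 at chr13:110999743-111000744 (1.5e-05) and 1.14 ± 0.20 at chr13:52218024-52219025 (5e-06). At the last of these the level was lower with trametinib in both subpopulations, with 35.1 and 35.2 CPM in NEG cells, against 49.5 and 54.8 CPM, and with 48.1, 46.7 and 47.1 CPM in POS cells, against 170, 134 and 159 CPM.

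In the negative direction chr13:42184281-42185282 had a difference of -1.91 ± 0.32 (edgeR adjusted p = 2.1e-06). NEG cells had 4.96 and 7.70 CPM there with acute trametinib, against 12.3 and 10.0 CPM under DMSO, and POS cells 74.3, 75.2 and 80.8 CPM, against 40.1, 32.6 and 34.0 CPM. The region chr13:42402031-42403032, distal to it, had -1.40 ± 0.22 (4.9e-07), chr13:34271092-34272093 had -1.18 ± 0.23 (3e-05) and chr13:73784130-73785131 had -1.11 ± 0.30 (0.003). The last call was lost without NEG DMSO replicate 2 (edgeR adjusted p = 0.114) and without NEG trametinib replicate 2 (0.0904).

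At day 14 the largest difference at a named region was 3.39 ± 0.26 at chr13:45763926-45764927 (edgeR adjusted p = 2.2e-35). NEG cells had 43.9 and 49.7 CPM there at day 14, against 40.0 and 40.4 CPM at day 0, and POS cells 13.4 and 12.7 CPM, against 120 and 113 CPM. The region chr13:114065045-114066046 had 2.78 ± 0.20 (4.5e-40), chr13:80510173-80511174 had 2.04 ± 0.29 (1e-11) and chr13:73712277-73713278 had 1.83 ± 0.24 (3.3e-13). Negative differences were found at chr13:52025732-52026733 with -1.74 ± 0.20 (1.7e-16), chr13:50699546-50700547 with -1.73 ± 0.23 (6.4e-13), chr13:48974338-48975339 with -1.60 ± 0.25 (8.7e-10) and chr13:31039225-31040226 with -1.59 ± 0.25 (8.7e-10). At chr13:48974338-48975339 POS cells had 217 CPM in both day 14 libraries, against 56.5 and 43.9 CPM at day 0, and NEG cells 31.1 and 34.2 CPM, against 20.4 and 27.5 CPM.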

How the results depend on the processing

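No stretch median and no named region changed direction under any alternative run for it. The larger direction of calls turned under 8 alternatives, all in the acute interaction, acute trametinib in NEG cells or POSR1 over day 0 POS cells. Without POS DMSO replicate 2 the acute interaction had 37 and 36 calls, and without POS trametinib replicate 1 it had 31 and 30. The median of chromosome 13 minus that of all regions for acute trametinib in NEG cells was -0.04 with all libraries and 0.04 without NEG trametinib replicate 2. The count of calls moved by over 1.5 times in 4 comparisons under DESeq2, to 43 from 68 for the acute interaction, 146 from 353 and 88 from 223 for NEG cells after acute trametinib and at day 14, and 354 from 563 for POSR2 over POSR1. Leaving out each replicate gave 43 to 76 calls for the acute interaction (43 without NEG trametinib replicate 2) and 361 to 419 for POSR2 over POSR1. For JUNB sites outside H3K27ac regions the median of 0.73 ranged from 0.49 to 0.89 without single libraries.

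The medians of the low stretches moved with their limits and with single libraries, and no cause was tested. From 62 to 71 Mb the JUNB median was -3.78 with limits moved in by 1 Mb, -3.08 with limits moved out, -3.48 with no filter on low counts and also with scaling over the other chromosomes, and -3.45 to -3.12 without single libraries. POSR1 over POS was 2.48 with limits moved out and 2.53 to 3.17 without single libraries, and POSR2 over POS 1.71 and 1.9 to 2.32. From 87 to 95 Mb H3K27ac was -2.46 with limits moved in, -1.77 with limits moved out and -3.52 to -2.83 without single libraries. JUNB there was -3.28, -2.38 and -3.77 to -3.46. POSR1 over POS was 1.49 with limits moved out, and POSR2 over POS 0.54, or 1.09 to 1.4 without single libraries. These alternatives on the stretches were chosen after seeing the data.

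Same-numbered replicates did not all deviate together (r from -0.202 to 0.375). In POS cells with acute trametinib and DMSO r was 0.119, 0.375 and -0.0159, so not every pair passed 0.1, and the numbers were not taken to pair the samples. With a replicate block the calls were 905, against 1050 without it, for POS over NEG, 630, against 756, for POSR1 over POS, 651, against 790, for POSR2 over POS and 720, against 675, for acute trametinib in POS cells. The counts at these depths limit low regions most: the median region from 62 to 71 Mb had 3 to 6 counts in POS libraries.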
